A study of Mus musculus with 8 samples.

Results

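The expression of the enzymes that elongate long-chain fatty acids was examined in brown adipose tissue (BAT) of mice fed a high-fat diet (HFD). The 10 genes *Elovl1*, *Elovl3*, *Elovl4*, *Elovl5*, *Elovl6*, *Elovl7*, *Hsd17b12*, *Hacd2*, *Hacd3* and *Tecr* were taken by name because they cover the 4 steps of elongation, and all 10 were found among the 44674 genes of the deposited mRNA sequencing tables. The 4 control mice carried Ox1R fl/fl without the Cre transgene (Sert-Cre wt/wt). The 4 Ox1RΔSERT mice carried Ox1R fl/fl with Sert-Cre tg/wt, so that orexin receptor 1 was deleted in cells that use the promoter of the serotonin transporter. All 8 mice were males on a C57BL/6N background that received HFD from week 4 to week 18, and BAT was dissected at the end of a hyperinsulinemic-euglycemic clamp, in which insulin is infused while glucose is given to hold blood glucose steady. Mice are called by the numbers in the labels. Where 4 values are listed, they stand in the order of mice 10684, 11253, 11560 and 11563 for the control group and of mice 11243, 11601, 11613 and 11708 for the Ox1RΔSERT group. Levels are given as scaled CPM, the counts relative to the library total after TMM scaling between libraries, or as TPM, which is the authors' level relative to transcript length and to the sum over all transcripts.

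Elongation takes place at the endoplasmic reticulum and lengthens a fatty acyl-CoA by a pair of carbons from malonyl-CoA in each round. An elongase of the Elovl family condenses the acyl chain with malonyl-CoA, and this condensation sets which chains are lengthened. The product is reduced by the 3-ketoacyl-CoA reductase Hsd17b12, dehydrated by a 3-hydroxyacyl-CoA dehydratase of the Hacd family and reduced again by the trans-2-enoyl-CoA reductase Tecr. In BAT, *Elovl3* is known as a gene that responds to cold, and *Elovl6*, which lengthens palmitate, is known as a lipogenic gene.

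The libraries held between 35852708 and 50063339 counts, of which 40% to 46.8% in control mice and 33.6% to 44.6% in Ox1RΔSERT mice lay in mitochondrially encoded genes. This share was below that of every control mouse in 3 of 4 Ox1RΔSERT mice. A scaling without these genes left the count of members without overlap at 3. edgeR called 0 of all genes with and without them, so its count of 0 members does not bear on this share. The part of this share in the results below was not tested further. *Ucp1*, which defines brown adipocytes, was present at 1860 to 2640 TPM in all 8 mice, and the adipocyte gene *Adipoq* at 288 to 435 TPM. The deleted receptor, *Hcrtr1*, was listed at no more than 0.159 scaled CPM in any mouse. As it was deleted in cells that use the promoter of the serotonin transporter, its level in BAT cannot check the genotype labels. Ox1RΔSERT mice 11601 and 11708 stood apart on the first principal component, which held 52.2% of the variance, at 61.6 and 80.5 against -47.5 to 8.62 in the other mice. In these mice the summed TPM of 8 leukocyte markers was 592 and 421, against 45.3 to 97.7 in control mice and 71.4 to 92.6 in mice 11243 and 11613. The most abundant of these markers, *Lyz2*, reached 492 and 329 TPM there and 37.3 to 80.9 TPM elsewhere. The summed TPM of 8 skeletal muscle markers was 1060 in Ox1RΔSERT mouse 11708, 537 in control mouse 11253, 107 in Ox1RΔSERT mouse 11601 and 1.24 to 16.9 in the others. The sum of 4 hepatocyte markers was 488 in mouse 11708 and 2.23 to 37.3 in the others. Results that rest on these mice are given with and without them. In bulk tissue, fewer cells of a type and less RNA per cell cannot be told apart.

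Compared per transcript length, the elongation enzymes of BAT differed widely in level. *Hsd17b12* led with 132 TPM as the mean of the 8 mice and was above the next gene in 8 of 8 mice, with ranges that did not overlap (108 to 144 TPM against 43.3 to 79.6 TPM). *Tecr* (60 TPM), *Elovl6* (52.2 TPM), *Elovl3* (49.3 TPM), *Hacd2* (32.7 TPM) and *Hacd1* (28.6 TPM), a further dehydratase, followed with ranges that overlapped from each gene to the next. *Elovl5* stood at 14.3 TPM, *Hacd3* at 8.14 TPM and *Elovl1* at 7.75 TPM. The lowest were *Elovl4* at 0.562 TPM, *Hacd4* at 0.487 TPM, *Elovl2* at 0.290 TPM and *Elovl7* at 0.0337 TPM. The gap between *Elovl1*, with a lowest value of 4.26 TPM, and *Elovl4*, with a highest value of 1.14 TPM, separated 9 genes from 4 that were barely detected. Thus each of the 4 steps had at least 1 enzyme above 20 TPM in all 8 mice, and for condensation this held for *Elovl3* and *Elovl6*.

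**Figure D1:**
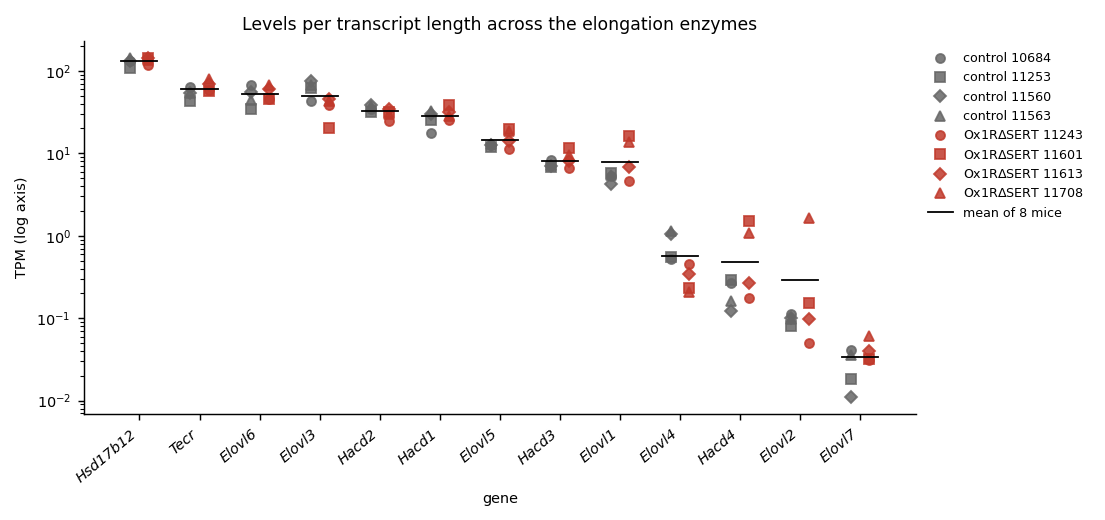
Level of 13 elongation genes in TPM on a log axis, with 1 point per mouse (grey, 4 control mice; red, 4 Ox1RΔSERT mice; marker shapes tell the mice apart) and a line at the mean of the 8 mice. The level falls from 132 TPM for *Hsd17b12* to 0.0337 TPM for *Elovl7*, and the red points lie below the grey points for *Elovl4*.

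Next, control and Ox1RΔSERT mice were compared gene by gene. edgeR's quasi-likelihood test with Benjamini-Hochberg adjustment over 14489 genes called 0 of the 9 members it could test, as it called 0 of all genes (0% called, lowest adjusted p 0.316). *Elovl7* had too few counts for this test. At an unadjusted p under 0.05, 4 members were lower in Ox1RΔSERT mice (*Hacd2*, *Elovl3*, *Elovl4* and *Hsd17b12*) and 0 were higher, where 4.96% of all tested genes were lower and 10.2% were higher by the same rule. DESeq2, the tool named in the study's methods, called 3 of the 10 members lower (*Hacd2*, *Elovl3* and *Elovl4*) and 0 higher at an adjusted p under 0.05, beside 0.212% of 15119 genes called lower and 1.54% called higher. On the scaled CPM, all 4 Ox1RΔSERT values lay below all 4 control values for 3 of the 9 tested members (*Hacd2*, *Elovl3* and *Hsd17b12*), beside 2.81% of all tested genes. The median log2 fold change of the tested members was -0.21, and that of all tested genes was 0.002. Without mice 11601 and 11708, edgeR and DESeq2 called 0 members, and 2 of 9 tested members (*Hacd2* and *Elovl3*), both lower, had an unadjusted p under 0.05, beside 1.2% of all tested genes. The members had been singled out with results of these data in view, so their counts describe them and do not test the pathway.

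**Figure D2:**
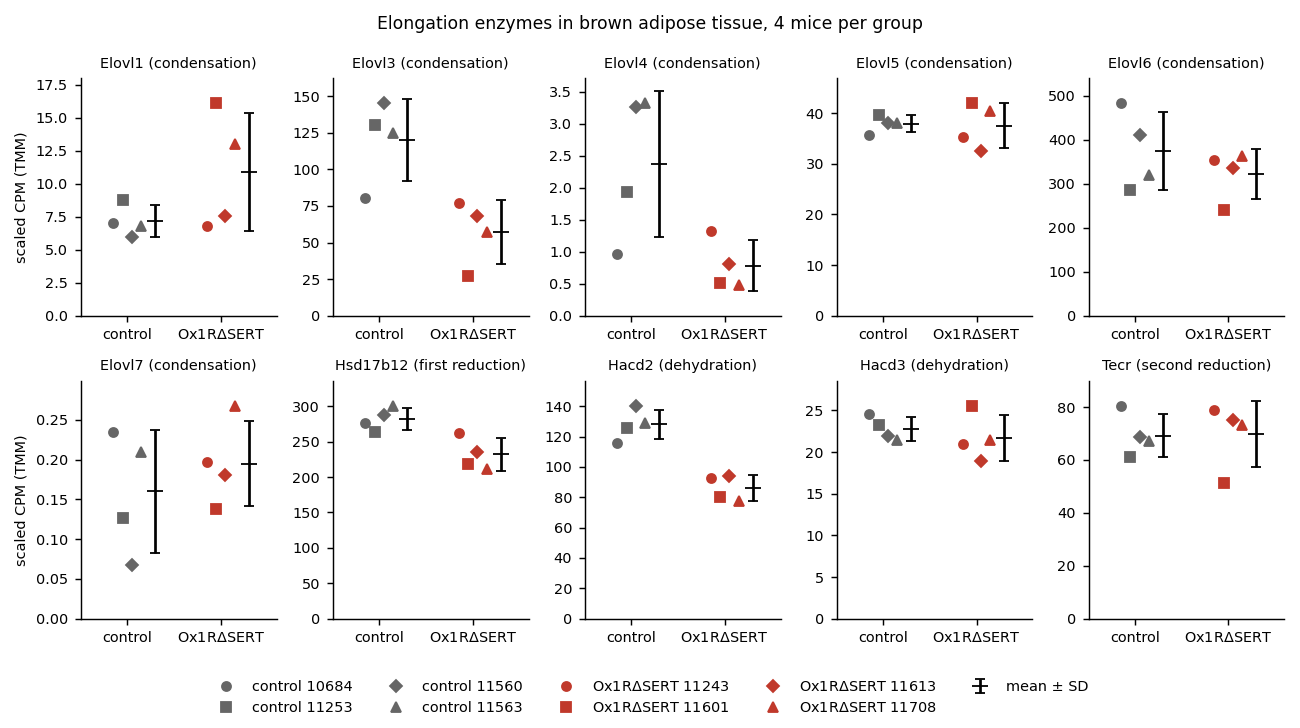
Scaled CPM of the 10 members in each mouse, with 1 panel per gene and its step in the title, all axes starting at 0, 1 point per mouse and the mean ± SD of 4 mice beside each group. The 4 Ox1RΔSERT points lie below the 4 control points for *Elovl3*, *Hsd17b12* and *Hacd2*, with the widest gap for *Hacd2*.

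Among the condensing enzymes, *Elovl3* was lower in Ox1RΔSERT mice. This elongase makes saturated and monounsaturated very long chains and is abundant in brown fat. Its scaled CPM was 80.2, 130, 145 and 125 in the control group and 76.7, 27.1, 67.9 and 57.2 in the Ox1RΔSERT group. The groups did not overlap, but control mouse 10684 lay just above the highest Ox1RΔSERT mouse and far below the other controls. The means were 120 ± 28.0 and 57.2 ± 21.6 (SD, n = 4 each), with an exact permutation p of 0.0286, the smallest that 4 mice against 4 allow. The log2 fold change was -1.07 ± 0.31 (SE), with an adjusted p of 0.316 in edgeR and of 0.0406 in DESeq2. The DESeq2 call was lost without any one of mice 11708, 11601, 11253, 11563 or 11560, with adjusted p-values of 0.0866 to 0.281. Without both mice 11601 and 11708 the log2 fold change was -0.73 and the DESeq2 adjusted p was 0.751. In TPM the groups overlapped, at 43.2 to 74.8 in control mice and 20.5 to 45.9 in Ox1RΔSERT mice, with an exact permutation p of 0.0571. *Ucp1* was at 4270 ± 585 scaled CPM in control mice and 2940 ± 615 in Ox1RΔSERT mice, and with TMM scaling all 11 brown adipocyte markers had a negative log2 fold change, with a median of -0.29. In log2(TPM + 0.1), 5 of these were negative and 6 positive, with a median of 0.01 where that of all genes was 0.32, and without mice 11601 and 11708 the median was -0.13. With TMM scaling, 4 of the 11 were lower at an unadjusted p under 0.05 and 0 were higher, beside 4.96% and 10.2% of all tested genes. In log2(TPM + 0.1) 0 were lower by this rule, and without mice 11601 and 11708 it was 1, beside 1.2% of all tested genes. None of these markers passed the DESeq2 threshold or that of edgeR, which 0 of all genes passed. The part of these markers in the *Elovl3* result was not tested.

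*Elovl4*, which makes the ultra-long chains of skin and retina, was rare in BAT and rarer still in Ox1RΔSERT mice. The control group had 37, 61, 145 and 158 estimated counts and the Ox1RΔSERT group 61, 26, 36 and 23. On the scaled CPM these were 0.968, 1.93, 3.27 and 3.32 against 1.33, 0.513, 0.808 and 0.473, so that 3 of 4 Ox1RΔSERT mice lay below all controls and control mouse 10684 lay among the Ox1RΔSERT mice. The exact permutation p was 0.0571. Its log2 fold change was -1.61 ± 0.47 (SE), the most negative of the members, with an adjusted p of 0.316 in edgeR and of 0.0490 in DESeq2. The call was lost without the same 5 mice as for *Elovl3*, at adjusted p-values of 0.0692 to 0.409, and the log2 fold change was -1.15 without mice 11601 and 11708. On the TPM scale the groups did not overlap, with 0.526 to 1.14 TPM in control mice and 0.208 to 0.448 TPM in Ox1RΔSERT mice, and *Elovl4* was the single tested member of which this held (0.166% of all tested genes).

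*Elovl6*, with a mean of 50.2 TPM in control mice and 54.3 TPM in Ox1RΔSERT mice against 61.7 and 37.0 TPM for *Elovl3*, was not called. It was at 483, 286, 412 and 320 scaled CPM in control mice and at 355, 240, 336 and 363 in Ox1RΔSERT mice. These ranges overlapped, and the highest value was that of control mouse 10684, the mouse in which *Elovl3* was lowest among the controls. The log2 fold change was -0.21 ± 0.20 (SE) with an adjusted p of 0.601 in edgeR, and it was 0.14 on the log2(TPM + 0.1) scale. *Elovl5*, which lengthens polyunsaturated chains, gave 35.7 to 39.6 scaled CPM in control mice and 32.5 to 41.9 in Ox1RΔSERT mice. Its log2 fold change was -0.01 ± 0.10 (SE, adjusted p 0.956 in edgeR), with a sign that turned to 0.21 with scaling by library size.

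*Elovl1*, which makes saturated very long chains for sphingolipids, was higher in a pair of Ox1RΔSERT mice on the scaled CPM. It stood at 7.06, 8.81, 5.94 and 6.83 scaled CPM in control mice and at 6.77, 16.1, 7.57 and 13.0 in Ox1RΔSERT mice. Mice 11601 and 11708 were above all controls, whereas mice 11243 and 11613 lay within the control range. In TPM, mouse 11613 also lay above the controls, at 6.83 against 4.26 to 5.72, and mouse 11243 was at 4.64. The log2 fold change was 0.60 ± 0.28 (SE, adjusted p 0.346 in edgeR), and it was 0.01 without mice 11601 and 11708, the mice in which the leukocyte markers were high. All 6 leukocyte markers that could be tested had an unadjusted p under 0.05 in the higher direction, with a median log2 fold change of 1.67, beside 10.2% of all tested genes. Without mice 11601 and 11708, 0 of the 6 had such a p and the median was 0.16. With all 8 mice, DESeq2 called 2 of the 8 leukocyte markers higher at an adjusted p under 0.05 (*Ptprc* and *Itgam*), beside 1.54% of genes. The part of leukocytes in the *Elovl1* values was not tested. *Elovl7* was at 3 to 13 estimated counts in each mouse, and in DESeq2 its log2 fold change was 0.27 ± 0.66 (SE, adjusted p 0.881), so that a difference between the groups was not detectable at this depth.

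*Hsd17b12* is the enzyme of the first reduction, and also acts on steroids. It was at 276, 263, 287 and 300 scaled CPM in control mice and at 262, 218, 236 and 211 in Ox1RΔSERT mice. The groups did not overlap, but the highest Ox1RΔSERT mouse and the lowest control mouse nearly met. The means were 282 ± 15.8 and 232 ± 23.1 (SD, n = 4 each), a difference of -17.7%, with an exact permutation p of 0.0286. With a log2 fold change of -0.28 ± 0.10 (SE), *Hsd17b12* had an adjusted p of 0.316 in edgeR and of 0.162 in DESeq2 and was not called. Without mice 11601 and 11708 the log2 fold change was -0.17 ± 0.10. In TPM the order of the groups turned, with 129 ± 15 in control mice and 134 ± 12.4 in Ox1RΔSERT mice.

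For the dehydration step, *Hacd2* showed the widest separation of the members relative to its spread. It was at 116, 126, 140 and 129 scaled CPM in control mice and at 92.7, 80.2, 94.1 and 77.7 in Ox1RΔSERT mice. All Ox1RΔSERT mice lay below all control mice with a clear gap, and here control mouse 10684, though the lowest control, stayed away from the Ox1RΔSERT mice. The means were 128 ± 9.85 and 86.2 ± 8.44 (SD, n = 4 each), a difference of -32.6%, with an exact permutation p of 0.0286. The log2 fold change was -0.57 ± 0.10 (SE), with an unadjusted p of 0.000329 and an adjusted p of 0.316 in edgeR and an adjusted p of 0.00252 in DESeq2. With each mouse left out in turn, DESeq2 called *Hacd2* in 7 of 8 fits, and the call was lost without control mouse 11560 (adjusted p 0.0910). Leaving out both mice 11601 and 11708 moved the log2 fold change to -0.45, and *Hacd2* was then not called by DESeq2 (adjusted p 0.430). In TPM the difference was smaller, with 35.4 ± 3.11 in control mice and 30.1 ± 3.93 in Ox1RΔSERT mice, and the ranges overlapped (31.8 to 38.7 TPM against 24.9 to 34.1 TPM).

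*Hacd3*, a paralog of *Hacd2*, was at 24.6, 23.2, 21.9 and 21.4 scaled CPM in control mice and at 21.0, 25.5, 18.9 and 21.4 in Ox1RΔSERT mice. The groups overlapped, and mouse 11601 was the highest of the 8. For *Hacd3* the log2 fold change was -0.07 ± 0.11 (SE, adjusted p 0.775 in edgeR), and it was 0.16 with scaling by library size and 0.26 in log2(TPM + 0.1).

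Because both genes serve the same step and had different values, the 250 bases before the RefSeq start of each (GRCm38.p6) are shown side by side, in the direction of transcription. RefSeq promoters were found for 9 of the 10 members, all but *Elovl3*. The *Hacd2* window is chr16:35022171-35022420 on the plus strand, and the *Hacd3* window is chr9:65021718-65021967 on the minus strand. Capitals mark matches on either strand to the letters GGGCGG, known as a GC box. They also mark the CCAAT box, which is spelled by its name, and the E-box with the palindromic letters CACGTG. In *Hacd3* a CCAAT box and a GC box adjoin, and no other matches do.
Hacd2: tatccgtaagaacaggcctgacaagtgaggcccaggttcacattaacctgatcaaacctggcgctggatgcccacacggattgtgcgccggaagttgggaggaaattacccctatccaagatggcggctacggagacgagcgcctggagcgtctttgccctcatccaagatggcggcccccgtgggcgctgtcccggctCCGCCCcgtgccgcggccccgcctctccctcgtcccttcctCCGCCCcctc
Hacd3: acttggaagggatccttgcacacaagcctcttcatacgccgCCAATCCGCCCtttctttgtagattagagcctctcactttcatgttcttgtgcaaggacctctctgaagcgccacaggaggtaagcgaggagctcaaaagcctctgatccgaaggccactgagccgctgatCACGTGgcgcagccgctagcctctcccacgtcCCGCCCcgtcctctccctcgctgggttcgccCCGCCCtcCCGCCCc

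*Hacd2* had 2 GC boxes, at -51 and -10 from the start, and *Hacd3* had 4 GC boxes, 1 CCAAT box and 1 E-box. The motifs were also counted over whole promoters, from 250 bases before to 50 after the start. The 9 members had 10 such windows, 2 of them for *Elovl1*, and a member was counted if any of its windows held the motif, whereas the shares of all promoters count single windows. A GC box lay in 7 of the 9 members and in 35.7% of 32851 RefSeq promoters of the same length. In 8 of the 9 members every window was richer in G and C (51% to 74% over the 10 windows) than the median promoter, at 52.7%, and a GC box consists of these letters. A CCAAT box lay in 6 members and 37.4% of all promoters, and the E-box in 3 members and 7.15% of all promoters. The half-site of nuclear receptors (AGGTCA) was found in 2 members and in 16.3% of all promoters. The sterol regulatory element (TCACNCCAC), which is bound by SREBP proteins, was in 0 of the 10 windows and in 1.24% of all promoters. These matches describe the letters of the windows and do not show binding.

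*Tecr*, the enzyme of the second reduction, had a log2 fold change of 0.01 ± 0.15 (SE, adjusted p 0.980 in edgeR). It was at 80.3, 61.0, 68.5 and 67.0 scaled CPM in control mice and at 78.8, 51.3, 75.3 and 73.4 in Ox1RΔSERT mice. The ranges overlapped, and mouse 11601, which was the highest for *Hacd3*, was the lowest for *Tecr*. The sign of its fold change turned with several settings, since it lay close to 0, and it was 0.31 in log2(TPM + 0.1).

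Of the 3 further elongation enzymes, edgeR called 0. DESeq2 called neither *Hacd1* nor *Hacd4* with all 8 mice and gave no adjusted p for *Elovl2*. *Hacd1*, the dehydratase known from muscle, was at 13.5 to 24.4 scaled CPM in control mice and 15.3 to 20.2 in Ox1RΔSERT mice, with a log2 fold change of -0.17 ± 0.19 (SE, adjusted p 0.676 in edgeR) that turned to 0.05 with scaling by library size. It was at 22.3 scaled CPM in control mouse 11253 and 15.3 in Ox1RΔSERT mouse 11708, where the muscle markers were high, and at 24.4 in control mouse 11563, where their sum was 1.24 TPM. *Hacd4* was at 1.18, 1.87, 0.70 and 0.883 scaled CPM in control mice and at 1.03, 5.38, 1.08 and 4.38 in Ox1RΔSERT mice. As for *Elovl1* on the scaled CPM, only mice 11601 and 11708 lay above the controls. The log2 fold change of 1.37 ± 0.60 (SE, adjusted p 0.328 in edgeR) was -0.12 without these mice. *Elovl2*, which makes long polyunsaturated chains and is abundant in liver, was at 5.0 scaled CPM in Ox1RΔSERT mouse 11708 and at 0.218 to 0.454 in the 7 other mice. In mouse 11708 the hepatocyte gene *Alb* was at 287 TPM, against 0.546 to 19.4 TPM in the others, and the log2 fold change of *Elovl2*, 1.85 ± 0.97 (SE, adjusted p 0.376 in edgeR), was -0.32 without this mouse. DESeq2 called *Hacd4* without mouse 11243 (adjusted p 0.036) and in none of the other fits with 1 mouse left out. The part of leukocytes, of muscle and of liver RNA in these values was not tested.

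**Figure D3:**
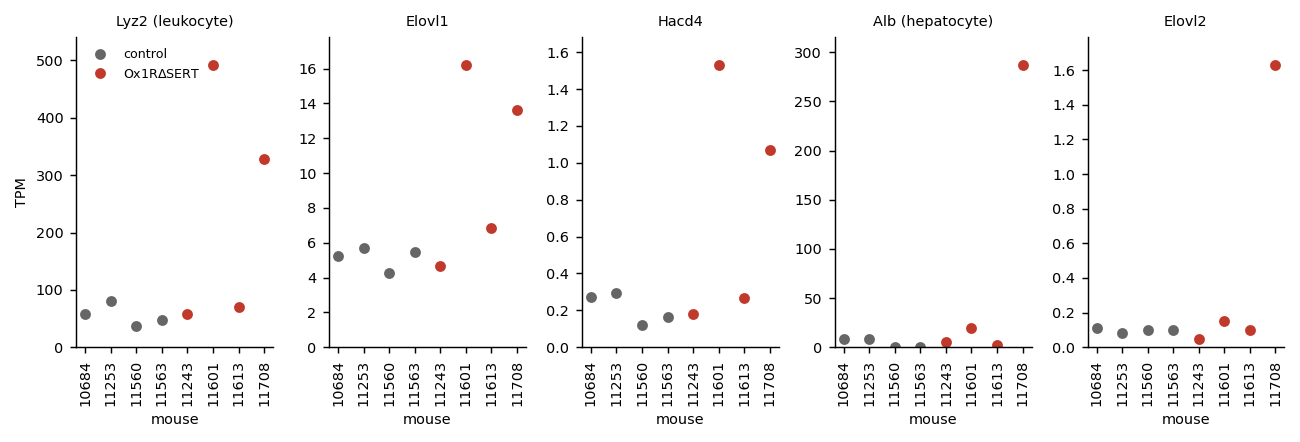
TPM of the leukocyte marker *Lyz2*, *Elovl1*, *Hacd4*, the hepatocyte marker *Alb* and *Elovl2*, with 1 point per mouse (grey, control; red, Ox1RΔSERT) and axes starting at 0. Mice 11601 and 11708 are the highest for *Lyz2*, *Elovl1* and *Hacd4*, and mouse 11708 stands alone for *Alb* and *Elovl2*.

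Shares within a mouse do not depend on how libraries are scaled to each other, so the make-up of the condensation and dehydration steps was described in this way, without a test. *Elovl3* made up 33.5%, 53.8%, 50.5% and 51.4% of the summed TPM of the 7 Elovl genes in control mice. In Ox1RΔSERT mice it made up 38.6%, 20%, 36.2% and 29.7%. Control mouse 10684 again lay within the Ox1RΔSERT range. The means were 47.3% ± 9.32 and 31.1% ± 8.32 (SD, n = 4 each), a difference of -16.2 percentage points. *Elovl6* took 38.3% ± 9.77 in control mice and 45.7% ± 1.20 in Ox1RΔSERT mice, with the highest share, 52.2%, in control mouse 10684. *Elovl5* took 8.57% to 10.5% in control mice and 11.2% to 19.4% in Ox1RΔSERT mice, the one elongase share of TPM without overlap. In shares of scaled CPM the *Elovl5* ranges overlapped, at 5.88% to 8.48% and 7.3% to 12.9%. *Elovl1* took 4.03% ± 0.887 and 8.82% ± 5.13 of the TPM. Since shares are parts of a whole, a lower share of *Elovl3* by itself raises those of the other genes. The share of *Elovl5* and *Elovl1* was highest in mouse 11601, at 19.4% and 15.8%, and next in mouse 11708, at 13% and 9.51%. Thus *Elovl3* was the leading elongase by TPM in 3 of 4 control mice and *Elovl6* in 4 of 4 Ox1RΔSERT mice and in control mouse 10684. The summed TPM of the Elovl genes was 131 ± 14.2 in control mice and 118 ± 20.2 in Ox1RΔSERT mice, with overlapping ranges.

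*Hacd2* made up 56.5%, 49.4%, 51.0% and 48.5% of the summed TPM of the 4 Hacd genes in control mice. In Ox1RΔSERT mice it made up 43.7%, 38.1%, 46.2% and 43.0%. The groups did not overlap, with means of 51.4% ± 3.60 and 42.7% ± 3.42 (SD, n = 4 each). The remainder was mostly *Hacd1*, at 37.6% ± 5.72 in control mice and 43.7% ± 1.99 in Ox1RΔSERT mice, and *Hacd1* was above *Hacd2* in Ox1RΔSERT mice 11243 and 11601 and in 0 of 4 control mice. The summed TPM of the dehydratases was 69.2 ± 8.26 in control mice and 70.7 ± 10.9 in Ox1RΔSERT mice.

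**Figure D4:**
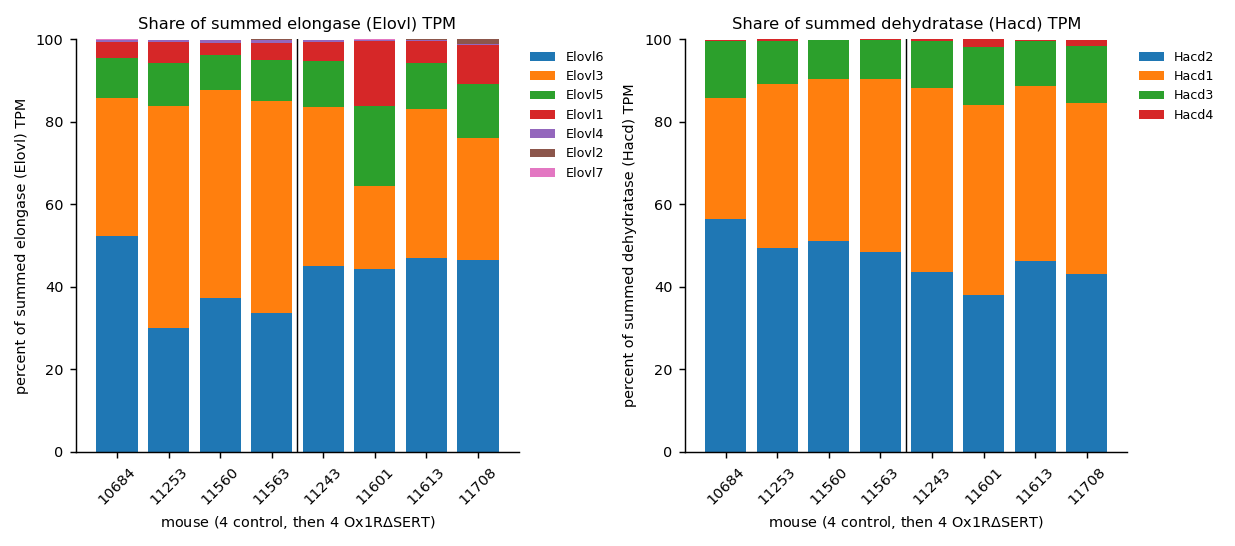
Stacked bars of the percent of summed TPM that each gene contributes to the Elovl genes (left) and the Hacd genes (right) in each mouse, 4 control mice to the left of the line and 4 Ox1RΔSERT mice to the right. *Elovl3* contributes 33.5% to 53.8% in control mice and 20% to 38.6% in Ox1RΔSERT mice, and *Hacd2* contributes 48.5% to 56.5% and 38.1% to 46.2%.

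The ratio of TPM between members within a mouse was described next, a measure chosen after the values had been seen. Of the 36 pairs among the 9 tested members, 9 had ratios that did not overlap between the groups, beside 5.29% of all pairs of 14400 tested genes. In each of these 9 pairs, *Elovl3*, *Elovl4* or *Hacd2* was the lower partner in Ox1RΔSERT mice. *Hacd2* relative to *Hsd17b12* was 0.256, 0.294, 0.295 and 0.258 in control mice and 0.213, 0.221, 0.240 and 0.219 in Ox1RΔSERT mice. *Elovl3* relative to *Tecr* was 0.677 to 1.41 in control mice and 0.358 to 0.662 in Ox1RΔSERT mice, so that the groups were separated narrowly. Set against each of the 14399 other genes in turn, the ratio was lower in Ox1RΔSERT mice without overlap for 58.8% of the genes with *Elovl4*, 48.3% with *Hacd2*, 42.8% with *Elovl3* and 11% with *Hsd17b12*. It was so for at most 5.13% with the other 5 tested members, and the median over all genes was 1.1%.

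The choice of scaling moved all members together. The median log2 fold change of all tested genes was 0.00 with TMM scaling, 0.22 with scaling by library size and 0.32 on the log2(TPM + 0.1) scale. The log2 fold changes of *Elovl3*, *Elovl4* and *Hacd2* stayed negative under all of these, at -0.89, -1.44 and -0.36 with library size and at -0.77, -1.13 and -0.24 in log2(TPM + 0.1). Relative to the median gene of the same scale, they were -1.11, -1.66 and -0.58 with library size and -1.09, -1.45 and -0.56 in log2(TPM + 0.1). *Elovl5*, *Elovl6*, *Hsd17b12*, *Hacd3* and *Hacd1* had a negative value with TMM scaling and a positive one in log2(TPM + 0.1), and *Hsd17b12* was at -0.26 relative to the median gene there. *Elovl1* and *Hacd4* were positive with each scaling, and near 0 or negative without mice 11601 and 11708.

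**Figure D5:**
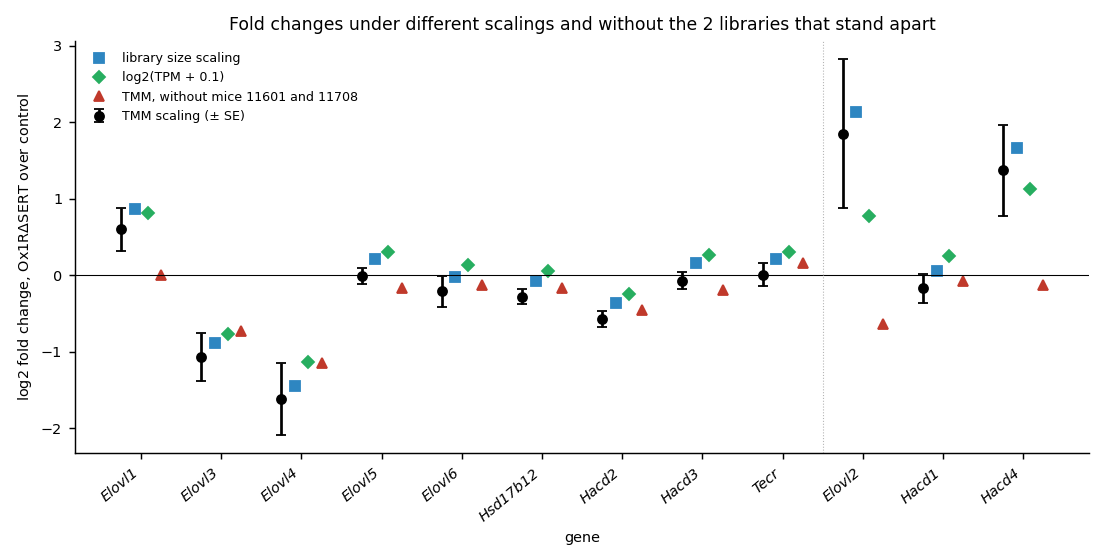
Log2 fold change of Ox1RΔSERT over control mice for 12 elongation genes with TMM scaling (black, ± SE), library size scaling, log2(TPM + 0.1) and TMM scaling without mice 11601 and 11708. The dotted line separates the 9 tested members from the 3 further enzymes, and *Elovl3*, *Elovl4* and *Hacd2* are below 0 in all 4 fits, while *Elovl1* drops from 0.60 to 0.01 without the 2 mice.

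To place elongation among its neighbouring steps, 49 further genes of 6 lists were followed, of which 44 could be tested. edgeR and DESeq2 called 0 of them. In edgeR 3 of the 44 had an unadjusted p under 0.05, all in the higher direction. Of all tested genes, 10.2% were higher and 4.96% lower by this rule. Among the 44 genes, 19 had a negative and 25 a positive log2 fold change, with a median of 0.03. These signs hold for TMM scaling, and those of single lists that turned with other scalings are given beside them. For the supply of malonyl-CoA and palmitate, 5 of 6 log2 fold changes were positive, with a median of 0.41, and 0 had an unadjusted p under 0.05. Without mice 11601 and 11708 the median was 0.60. In that fit 2 of the 6 had an unadjusted p under 0.05 in the higher direction, beside 1.66% of all tested genes. In log2(TPM + 0.1) the median was 0.74, where that of all genes was 0.32. *Fasn*, the fatty acid synthase, was at 4940, 1680, 2790 and 2500 scaled CPM in control mice and at 4740, 2240, 6500 and 5660 in Ox1RΔSERT mice (log2 fold change 0.68 ± 0.39 SE, adjusted p 0.416 in edgeR). *Acly*, which makes cytosolic acetyl-CoA, had its highest value in control mouse 10684, at 893 scaled CPM, with 154 to 242 in the other control mice and 338 to 811 in Ox1RΔSERT mice. Mouse 10684, which was the lowest control for *Elovl3* and *Hacd2* and the highest for *Elovl6*, was thus also the highest control for both of these genes.

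All 6 desaturases that could be tested had a positive log2 fold change, with a median of 0.58. An unadjusted p under 0.05 was found for 1 of them, in the higher direction, beside 10.2% of all tested genes. Without mice 11601 and 11708, 3 were negative and 3 positive, with a median of 0.09. *Scd1*, the stearoyl-CoA desaturase, which acts on the products of *Elovl6*, was the most abundant gene of all lists of lipid enzymes at 1670 TPM. It was at 3470 to 9140 scaled CPM in control mice and 5880 to 12700 in Ox1RΔSERT mice (0.63 ± 0.34 SE, adjusted p 0.384 in edgeR), and *Scd2* had a log2 fold change of 0.33 ± 0.36. The acyl-CoA synthetases, which activate fatty acids, had 4 negative and 4 positive values with a median of 0.00 (8 positive in log2(TPM + 0.1), with a median of 0.21), with *Acsl1* at -0.20 ± 0.17 and *Slc27a2* at -0.28 ± 0.24. Among ceramide synthases, 2 of 4 tested genes had an unadjusted p under 0.05 in the higher direction, beside 10.2% of all tested genes, and 0 had one without mice 11601 and 11708. The list's most abundant gene, *Cers2*, was at 0.03 ± 0.08 and *Cers5* at 0.32 ± 0.13 (adjusted p 0.324 in edgeR). *Cers5* was highest in mice 11601 and 11708, at 17.2 and 15 scaled CPM against 10.5 to 12.6 elsewhere, as were the leukocyte markers. In TPM it was at 5.06 to 5.94 in control mice and 6.13 to 11.4 in Ox1RΔSERT mice. The median log2 fold change of all genes was 0.32 in log2(TPM + 0.1). With TMM scaling, the log2 fold change of *Cers5* was 0.12 ± 0.12 without mice 11601 and 11708. The other gene of the pair, *Cers6*, named here after its values were seen, was at 12.9 and 13.0 scaled CPM in them and at 2.55 to 4.13 elsewhere, with a log2 fold change of 1.28 ± 0.46 that was 0.11 ± 0.23 without them. The part of leukocytes in these values was not tested.

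The peroxisomal enzymes that break down very long chains had 6 negative and 3 positive values with a median of -0.13 with TMM scaling. In log2(TPM + 0.1) all 9 were positive, with a median of 0.18 that lay below the 0.32 of all genes, and without mice 11601 and 11708 the median was 0.07. *Scp2*, which encodes a peroxisomal thiolase and a sterol carrier, was at -0.25 ± 0.12 (SE, adjusted p 0.362 in edgeR). Of the 11 transcription regulators of lipid synthesis, 7 were negative and 4 positive with a median of -0.07 with TMM scaling, and 11 were positive with a median of 0.29 in log2(TPM + 0.1). *Pparg*, the master regulator of adipocytes, had a log2 fold change of -0.03 ± 0.13 and *Mlxipl*, which encodes the glucose-responsive factor ChREBP, one of 0.02 ± 0.26.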

How the data were processed

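Poly-A selected, stranded libraries of BAT from 4 control and 4 Ox1RΔSERT mice were quantified by the authors with the nf-core rnaseq pipeline and Salmon 0.14.1 on GRCm38.p6, per the labels and the study's methods. The authors deposited estimated counts per gene, not normalized, and TPM, which the authors had set relative to transcript length and library total. The annotation release was not given in the sources used here, and symbols and positions came from GENCODE for GRCm38. Promoter sequences came from RefSeq.

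Estimated counts were rounded and tested, two-sided, with edgeR 4.0.16 (filterByExpr, TMM, quasi-likelihood) in R 4.3.3, with Benjamini-Hochberg adjustment over 14489 genes and a threshold of 0.05. DESeq2 1.42.0, limma 3.58.1, other scalings and filters, and each mouse left out were alternatives. The fit without mice 11601 and 11708 and the ratios between genes were added after the data were seen. Single members were also tested by exact permutation over the 70 assignments. The genes named were all members, *Elovl2*, *Hacd1* and *Hacd4*, the 2 genes with the highest TPM of each pathway list, and any list gene past a threshold. 1 gene that this rule names is not reported here. *Lyz2* and *Alb* stand for marker lists that moved with a member. The members, the lists and the tests were chosen with earlier results of these data known. The scripts were tested on simulated data.

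The limit that a count of 0 allows, 3 counts, was 0.0592 to 0.0951 scaled CPM by library and covers counting error only. Replicate numbers followed the order of accession and pair no mice. *Elovl1*, *Elovl3*, *Elovl6*, *Hacd2* and *Hacd4* share exon bases with a gene on the opposite strand (53, 10, 34, 32 and 746), which stranded libraries keep apart only as far as the counting used strand.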

Additional observations from a re-analysis of the deposited data

Results flagged for a closer look

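Of 50 groups of 4 mice looked at, for the 13 elongation genes and the 2 most abundant genes of each of the 6 neighbouring lists, 2 held a mouse far from the other 3 of its group. Chance flags about 1 in 20 such groups. *Elovl2* was at 5.0 scaled CPM in Ox1RΔSERT mouse 11708 and at 0.218 to 0.454 in the other Ox1RΔSERT mice. *Acly* was at 893 scaled CPM in control mouse 10684 and at 154 to 242 in the other control mice.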

How the results depend on the processing

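edgeR called 0 members and 0 genes of the neighbouring lists under every scaling, filter and omission run, and the count of 3 members arose with DESeq2. With 1 mouse left out, DESeq2 called 0 to 4 members, all lower, where it called 0.00595% to 2.06% of all genes lower. The 0 came without control mouse 11560 and the 4 without mouse 11243, at these 2 shares. Without mice 11601 and 11708 it called 0 members and 0.00514% of all genes lower. The count of members whose groups did not overlap was 2 with RLE or library size scaling (*Elovl3* and *Hacd2*, 2.64% and 0.483% of all genes) and 1 in TPM (0.166%). It was 3 to 4 with 1 mouse left out (3.31% to 8.1%). Without mice 11601 and 11708 it was 5 (*Elovl5* and *Hacd3* joining, 5.83%), where 2 mice are set against 4. Leaving mice out can raise this count but cannot lower it, so the counts with fewer mice do not show that it is stable. The difference in the *Elovl3* share was -20.8 to -12.5 percentage points with 1 mouse left out and -9.70 in shares of scaled CPM, and that of *Hacd2* was -9.77 to -6.89 and -7.56.

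Signs turned as follows. Scaling by library size gave 0.21 for *Elovl5*, 0.16 for *Hacd3* and 0.05 for *Hacd1*. On log2(TPM + 1) and log2(TPM + 0.1), *Elovl5* was at 0.30 and 0.31, *Elovl6* at 0.13 and 0.14, *Hsd17b12* at 0.06 and 0.06, *Hacd3* at 0.24 and 0.26, and *Hacd1* at 0.24 and 0.25. *Tecr*, close to 0 throughout, was at -0.00 in limma voom, -0.01 without a filter and with upper-quartile scaling, and -0.02 with an offset for transcript length. With 1 mouse left out, *Elovl5* ranged from -0.07 to 0.05, *Tecr* from -0.07 to 0.13 and *Elovl2* from -0.32 to 2.19. Without mice 11601 and 11708, *Elovl2* was at -0.63 and *Hacd4* at -0.12. The shift of the median gene accounts by construction for the part of these moves that all genes share. Why the scalings differ was not tested. *Elovl7* had 3 to 13 counts and *Elovl4* 23 to 158.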
